A study of Mus musculus with 6 samples.

Results

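Cholesterol and the isoprenoid tails that anchor small GTPases to membranes are made by a shared pathway, and 28 of its genes were followed here in mouse prostate cells with and without Rb, the retinoblastoma protein. The genes were picked by symbol, from the RefSeq accession of each non-control probe, and divided into 5 arms by their place in the pathway. All 28 had at least 1 probe among 20832 named genes of the array, and all 28 were well above background on all 6 arrays, so each was among the 13729 genes tested. Together they had 41 probes, of which 40 passed the filter.

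The samples were 6 cultures of primary prostate cells, 3 labelled p53-/- Rbf/f and 3 labelled p53-/- Rb∆f/∆f. Both groups lacked p53. Ages of the animals are not given in the sources used here. The Rb intact cultures were infected with a lacZ adenovirus and the Rb deleted cultures with a Cre adenovirus, so vector and Rb status go together in every sample. The medium was Prostacult without fetal bovine serum, with bFGF and bEGF added, and RNA was taken 48 hours after infection. Each sample was labelled with Cy3 and hybridised to its own Agilent array. The series text speaks of independent experiments, while no label says which animals the cultures came from, so p-values measure the spread between these cultures.

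Each level is a log2 intensity from which the 75th percentile of its array was subtracted. A difference is Rb deleted minus Rb intact on that log2 scale, with the SE and the 95% interval of the limma fit. The words rose and fell are used where the adjusted p was under 0.05, with Benjamini-Hochberg adjustment over all genes tested. Rb1 itself checked the labels: its level was -1.01 ± 0.02 (SD, n = 3) with Rb intact and -2.96 ± 0.03 (SD, n = 3) after deletion, and it fell by 1.95 ± 0.05 (SE, limma adjusted p = 8.76e-05). Rb intact 1 stood apart from the other arrays. Its value lay outside the range of the other 5 in 61.9% of all genes tested and in 18 of the 28 pathway genes, against 25.4% to 31.3% of all genes for each other array. Of the Rb deleted arrays, number 1 shared a slide with all 3 Rb intact arrays, and numbers 2 and 3 were on another slide that held no Rb intact array.

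The mevalonate pathway condenses acetyl-CoA into isopentenyl units and joins them into farnesyl and geranylgeranyl diphosphate. From farnesyl diphosphate, squalene synthesis commits carbon to sterols, whereas prenyltransferases attach farnesyl or geranylgeranyl groups to proteins that end in a CaaX sequence. The genes are controlled together by SREBP transcription factors, which Scap escorts to the Golgi for cleavage when sterols are low and which Insig proteins hold back when sterols are high. Rb is known to restrain E2F and, in other cells, the SREBP-driven genes that feed protein isoprenylation. Here the arms of the pathway are compared between cells with and without Rb.

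The bases before the gene start show what these promoters share. The RefSeq table of build GRCm38.p6 held 27 promoters for 22 of the 28 genes, and the 250 bases before each start were searched on both strands. CCAAT, the core of NF-Y sites, was in 18 of 27 promoters of the pathway genes (66.7%) and in 33.9% of all 32851 promoters. GGGCGG, the core of Sp1 sites, was in 21 of 27 (77.8%) and in 32.7% of all. The letters TCACNCCA, a form of the sterol regulatory element that SREBP binds, were in 3 of 27 (11.1%), those of Hmgcs1, Msmo1 and Srebf2, and in 3.67% of all. The E2F-type letters TTTNNCGC were in 0 of 27 and in 4.28% of all. These are matches of letters, and the last motif may lie outside these windows. The promoters of the 3 genes with the sterol element and of Hsd17b7, the pathway gene with the largest fall, follow as 250 bases 5′ to 3′ on the gene's strand, with TCACNCCA and CCAAT matches, on either strand, in capitals. Hmgcs1 lies at chr13:119690101-119690350 (+), Msmo1 at chr8:64733579-64733828 (-), Srebf2 at chr15:82147019-82147268 (+) and Hsd17b7 at chr1:169969206-169969455 (-).
Hmgcs1: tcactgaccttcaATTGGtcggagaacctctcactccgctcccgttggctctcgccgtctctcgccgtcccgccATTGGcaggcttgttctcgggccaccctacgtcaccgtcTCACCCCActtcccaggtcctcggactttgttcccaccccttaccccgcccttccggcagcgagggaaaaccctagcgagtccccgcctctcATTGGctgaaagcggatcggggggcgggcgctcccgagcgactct
Msmo1: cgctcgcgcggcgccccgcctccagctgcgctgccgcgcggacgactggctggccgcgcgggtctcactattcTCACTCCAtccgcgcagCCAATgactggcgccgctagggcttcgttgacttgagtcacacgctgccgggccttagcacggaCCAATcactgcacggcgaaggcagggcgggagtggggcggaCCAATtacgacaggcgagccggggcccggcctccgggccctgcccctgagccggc
Srebf2: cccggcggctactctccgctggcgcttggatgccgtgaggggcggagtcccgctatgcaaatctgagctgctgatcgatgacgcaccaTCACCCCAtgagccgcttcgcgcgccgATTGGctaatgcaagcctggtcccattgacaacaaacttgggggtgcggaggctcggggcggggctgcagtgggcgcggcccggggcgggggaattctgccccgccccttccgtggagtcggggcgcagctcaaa
Hsd17b7: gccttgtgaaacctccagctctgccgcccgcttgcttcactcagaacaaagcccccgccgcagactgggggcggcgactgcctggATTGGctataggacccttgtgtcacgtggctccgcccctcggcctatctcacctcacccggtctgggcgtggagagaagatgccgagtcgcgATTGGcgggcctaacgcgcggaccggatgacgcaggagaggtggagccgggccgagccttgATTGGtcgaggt
The sterol element letters begin 137 bases before the start in Hmgcs1, 177 in Msmo1 and 162 in Srebf2, and Hsd17b7 holds 3 CCAAT matches and no sterol element match. None of the 3 genes with the element passed the test, with differences of -0.02 for Hmgcs1, -0.12 for Msmo1 and -0.05 for Srebf2.

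Most of the pathway did not pass the test. Pmvk rose, Acat2 and Hsd17b7 fell, and the other 25 genes did not pass the test. That is 1 rise and 2 falls among 28, where 20.6% of all 13729 genes tested were called, 10.2% rising and 10.4% falling. Differences ran from -0.47 for Hsd17b7 to 0.34 for Pmvk, with a median of -0.03 beside 0.02 for all genes, and 10 of the 28 were positive where 53.7% of all genes were. The groups did not overlap in 12 of the 28 (42.9%), against 45.2% of all genes. In a bulk sample, fewer cells that express a gene and less RNA per cell cannot be told apart, which holds for every difference here.

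**Figure D1:**
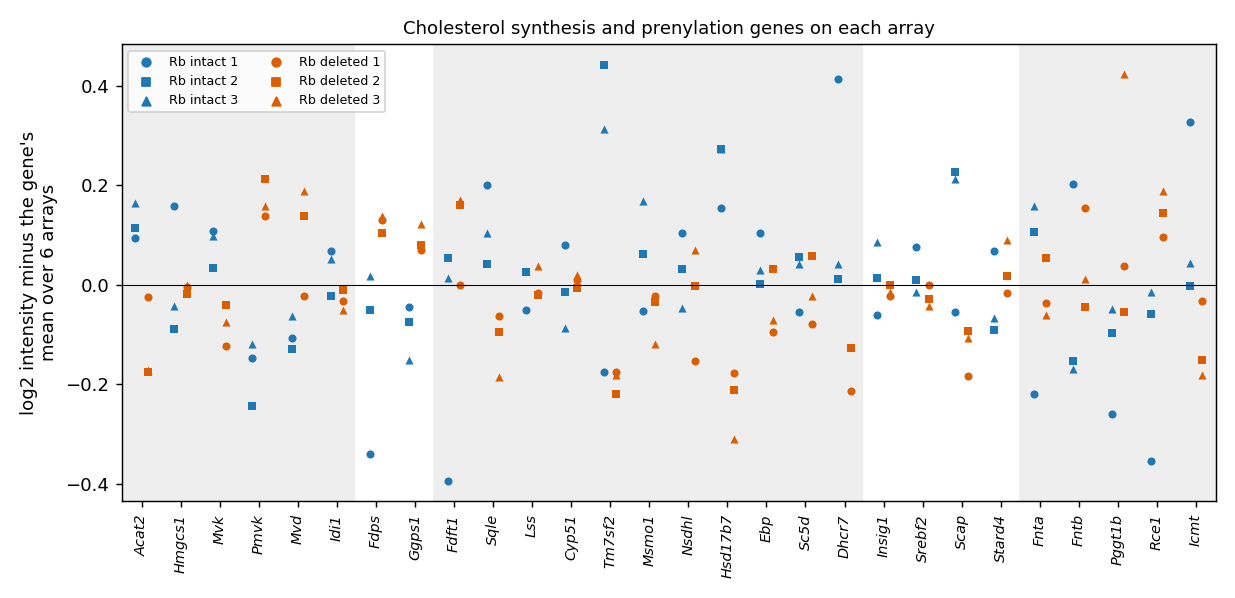
Level of each of the 28 genes on each array, as log2 intensity minus the gene's own mean over the 6 arrays (y axis), with genes on the x axis in pathway order and shading changing at each arm (mevalonate, prenyl diphosphate synthases, sterol, SREBP regulation, prenylation). Blue marks are Rb intact and orange marks Rb deleted arrays, and Rb intact 1 (blue circle) is the lowest point for Fdps and Fdft1 and the highest for Dhcr7 and Icmt.

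The calls changed with single arrays and with how the slide was treated. Without Rb intact 1, 4 of the 28 genes rose and 6 fell, when 37.7% of all genes were called. The 10 were the original 3 with Fdps, Ggps1 and Rce1 upward and Sqle, Tm7sf2, Dhcr7 and Scap downward. Without Rb deleted 2 or without Rb deleted 3, only the fall of Hsd17b7 passed (8.95% and 9.13% of all genes called), and without Rb intact 2 or 3 the Acat2 call was lost (12.7% and 12.3% of all genes called). Without Rb deleted 1 the original 3 passed (13.2% of all genes called). Array weights gave 5 rises and 9 falls (45.2% of all genes called). Slide as a random block gave 4 and 3 (29.8%), the original 3 with Mvd, Ggps1, Rce1 and Sqle. The correlation within slides estimated for the random block was negative, at -0.20. A call that held with the random block therefore does not show that it survived adjustment for slide. With slide as a fixed block, or on the shared slide alone, none of the 28 passed limma's threshold, which 4.85% and 1.11% of all genes passed. At an unadjusted p under 0.05, 1 of the 28 was higher and 1 lower in each of those fits, against 19.9% and 14.2% of all genes. Both fits take their differences from the 1 Rb deleted array on the shared slide, which is assumed to vary like the other arrays, so a lost call there does not separate the slide from the smaller number of arrays. On the shared slide the differences were 0.31 for Pmvk, -0.15 for Acat2 and -0.41 for Hsd17b7, each in the same direction as over all arrays. An exact permutation test of a single gene in 3 against 3 arrays cannot go below a two-sided p of 0.1.

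In the mevalonate arm, 1 of 6 genes rose and 1 fell, beside 20.6% of all genes called, with a median difference of -0.04. Pmvk, which encodes phosphomevalonate kinase, stood at 4.65, 4.56 and 4.68 in Rb intact 1, 2 and 3 and at 4.94, 5.01 and 4.96 in Rb deleted 1, 2 and 3. Every Rb deleted array lay above every Rb intact array, and Pmvk rose by 0.34 ± 0.06 (SE, 1.27-fold, limma adjusted p = 0.0108, 95% interval 0.20 to 0.48). The other probe of Pmvk gave 0.35 ± 0.08 (adjusted p over all probes = 0.0406, where 15.9% of probes were called). Acat2, the cytosolic thiolase that makes acetoacetyl-CoA at the head of the pathway, stood at 0.12, 0.14 and 0.19 in Rb intact and at -0.002, -0.15 and -0.15 in Rb deleted. The groups did not overlap, with Rb deleted 1 nearest to the Rb intact arrays, and Acat2 fell by 0.25 ± 0.06 (SE, 1.19-fold, limma adjusted p = 0.0403). The Acat2 call was also lost with array median scaling, with no filter on dim probes and with the normexp background model, which fits background to the median spot signals and gave a difference of -0.15 (adjusted p = 0.133). Mouse Acat2 has a close copy, Acat3, and whether the copies share probe signal was not tested.

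The 4 remaining mevalonate genes did not pass. Hmgcs1, which encodes the HMG-CoA synthase of the cytosol and is a classic SREBP target, stood at 5.18, 4.93 and 4.97 in Rb intact and at 5.013, 4.999 and 5.018 in Rb deleted. The Rb deleted arrays lay between those of the other group, and the difference was -0.02 ± 0.08 (95% interval -0.20 to 0.17, limma adjusted p = 0.893). For mevalonate kinase, Mvk, the difference was -0.16 ± 0.05 (limma adjusted p = 0.0842), and its other probe gave -0.26 ± 0.11 (adjusted p over all probes = 0.168). Mevalonate diphosphate decarboxylase, Mvd, gave 0.20 ± 0.07 (limma adjusted p = 0.0948), and both Mvk and Mvd had groups that did not overlap. Idi1, the isomerase that makes dimethylallyl diphosphate, gave -0.06 ± 0.05 (95% interval -0.19 to 0.06).

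The 2 prenyl diphosphate synthases were higher in the Rb deleted group without passing the test, with a median of 0.21. Fdps, which makes farnesyl diphosphate, stood at 5.24, 5.53 and 5.60 in Rb intact and at 5.71, 5.69 and 5.72 in Rb deleted. The groups did not overlap, and Rb intact 1 was the lowest array by far. The Fdps difference was 0.25 ± 0.10 (95% interval 0.01 to 0.49, limma adjusted p = 0.13) and 0.14 (adjusted p = 0.0436) without Rb intact 1. Ggps1, which makes geranylgeranyl diphosphate, stood at 0.93, 0.90 and 0.82 in Rb intact and at 1.04, 1.05 and 1.09 in Rb deleted. Its groups did not overlap either, and its difference was 0.18 ± 0.05 (95% interval 0.05 to 0.31, limma adjusted p = 0.0633), or 0.20 (adjusted p = 0.0189) without Rb intact 1. The other Ggps1 probe gave 0.11 ± 0.08 (adjusted p over all probes = 0.379).

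In the sterol arm, from squalene to cholesterol, 1 of 11 genes fell and none rose by limma. In this arm 9 of the 11 differences were negative and the median was -0.09. Of all genes tested, 20.6% were called and 53.7% had a positive difference. At an unadjusted p under 0.05, 4 of the 11 passed, all of them lower in Rb deleted, where 35.7% of all genes passed in either direction. Hsd17b7, the reductase that works in sterol demethylation, stood at 1.70, 1.82 and 1.82 in Rb intact and at 1.37, 1.34 and 1.24 in Rb deleted. The groups were well apart, and Hsd17b7 fell by 0.47 ± 0.06 (SE, 1.38-fold, limma adjusted p = 0.00524, 95% interval -0.62 to -0.31). Its second probe fell by 0.51 ± 0.06 (adjusted p over all probes = 0.00442). The Hsd17b7 call held when any 1 array was left out.

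Tm7sf2, a sterol C14 reductase, was measured by probes that disagreed on the call. The brighter probe, which stands for the gene here, stood at 2.87, 3.49 and 3.36 in Rb intact and at 2.87, 2.83 and 2.86 in Rb deleted. Rb intact 1 lay among the Rb deleted arrays, and the difference was -0.39 ± 0.16 (95% interval -0.77 to -0.01, limma adjusted p = 0.136). The other probe stood at 0.91, 0.93 and 0.87 in Rb intact and at 0.38, 0.31 and 0.32 in Rb deleted. There Rb intact 1 lay with its own group, and the probe fell by 0.57 ± 0.05 (SE, adjusted p over all probes = 0.00226). With the mean of a gene's probes, Tm7sf2 fell by 0.48 (limma adjusted p = 0.014, 22.2% of all genes called), and without Rb intact 1 the brighter probe fell by 0.57 (adjusted p = 0.00191).

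Fdft1 was among the 2 sterol genes with a positive difference. Fdft1, the squalene synthase that draws farnesyl diphosphate away from prenylation, stood at 2.92, 3.36 and 3.32 in Rb intact and at 3.31, 3.47 and 3.48 in Rb deleted, a difference of 0.22 ± 0.13 (95% interval -0.10 to 0.53), or 0.075 without Rb intact 1. The groups overlapped, and the dim second probe of Fdft1 gave -0.38 ± 0.14 (adjusted p over all probes = 0.113), opposite in sign, and the mean of both probes gave -0.082. Squalene epoxidase, Sqle, a rate-limiting enzyme of the sterol arm, stood at 4.61, 4.45 and 4.52 in Rb intact and at 4.35, 4.32 and 4.23 in Rb deleted. Its groups did not overlap and its difference of -0.23 ± 0.07 just missed the threshold (limma adjusted p = 0.0562). It passed without Rb intact 1, at -0.19 (adjusted p = 0.0434). Dhcr7, which completes cholesterol from its precursor, stood at 1.17, 0.77 and 0.80 in Rb intact and at 0.55, 0.63 and 0.63 in Rb deleted, with a difference of -0.31 ± 0.12 (limma adjusted p = 0.108). Rb intact 1 was far above the rest, and without it the Dhcr7 difference was -0.18 (adjusted p = 0.0295).

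The other 6 sterol genes did not pass. Lanosterol synthase, Lss, gave -0.001 ± 0.05 (95% interval -0.13 to 0.13), and the demethylase gene Cyp51 gave 0.02 ± 0.06 (95% interval -0.13 to 0.16). The 4-methylsterol oxidase gene Msmo1 gave -0.12 ± 0.07, the dehydrogenase gene Nsdhl -0.06 ± 0.08, the isomerase gene Ebp -0.09 ± 0.06 and the desaturase gene Sc5d -0.03 ± 0.06, with adjusted p between 0.298 for Msmo1 and 0.764 for Sc5d. Ebp fell by 0.23 with the normexp background model (limma adjusted p = 0.0478), and Msmo1 fell by 0.18 with array weights (adjusted p = 0.0285). Among all 25 genes not called, the interval that reached farthest from 0 was that of Tm7sf2, to -0.77 or 1.70-fold.

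**Figure D2:**
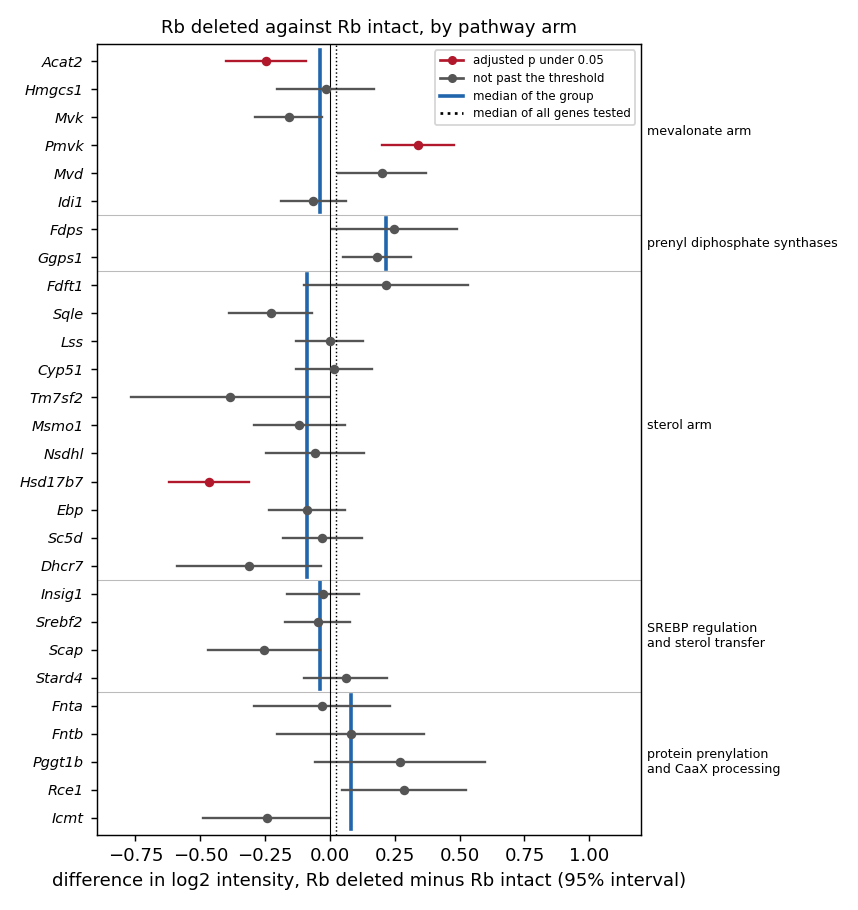
Difference in log2 intensity, Rb deleted minus Rb intact (x axis), for each of the 28 genes (y axis), with the 95% interval of the limma fit as a bar. Red marks Acat2, Pmvk and Hsd17b7, the genes past the threshold, blue lines are the medians of each arm, from -0.09 in the sterol arm to 0.21 for the prenyl diphosphate synthases, and the dotted line is the median of all genes tested at 0.02.

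Of the 4 genes for SREBP regulation and sterol transfer, none passed the limma test and 1, Scap, had an unadjusted p under 0.05. Of all genes, 35.7% had such a p. The median of these 4 genes was -0.04. Srebf2, which encodes the SREBP that drives sterol genes, stood at 0.70, 0.63 and 0.61 in Rb intact and at 0.62, 0.59 and 0.58 in Rb deleted. The groups overlapped, and the Srebf2 difference was -0.05 ± 0.05 (95% interval -0.17 to 0.08, limma adjusted p = 0.547). Its dimmer second probe gave 0.29 ± 0.11 (adjusted p over all probes = 0.12), opposite in sign. Insig1, the sterol-regulated brake on SREBP, gave -0.03 ± 0.06 (95% interval -0.17 to 0.11), and Stard4, a cholesterol transfer protein gene that SREBP induces, gave 0.06 ± 0.07. The dimmer second probe of Stard4 gave 0.17 ± 0.07 (adjusted p over all probes = 0.183). Scap, the escort of SREBP, stood at 3.06, 3.34 and 3.32 in Rb intact and at 2.93, 3.02 and 3.01 in Rb deleted. These groups did not overlap, with Rb intact 1 next to the Rb deleted arrays. The Scap difference was -0.26 ± 0.09 (limma adjusted p = 0.0938), and without Rb intact 1 it was -0.35 (adjusted p = 0.00446).

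None of the 5 genes for protein prenylation and CaaX processing passed the limma test. An unadjusted p under 0.05 was found for 2, Rce1 and Icmt, in opposite directions, and for 35.7% of all genes. The arm's median was 0.08. Rce1, the protease that trims the CaaX end after prenylation, stood at -0.78, -0.48 and -0.44 in Rb intact and at -0.33, -0.28 and -0.23 in Rb deleted, a difference of 0.29 ± 0.10 (95% interval 0.05 to 0.53, limma adjusted p = 0.0917). The groups did not overlap, and without Rb intact 1 the Rce1 difference was 0.18 (adjusted p = 0.0299). Icmt, the methyltransferase of the next step, stood at 0.97, 0.64 and 0.68 in Rb intact and at 0.61, 0.49 and 0.46 in Rb deleted. The Icmt difference was -0.24 ± 0.10 (limma adjusted p = 0.14) and -0.14 without Rb intact 1, while its other probes gave -0.01 ± 0.06 and -0.13 ± 0.09.

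The prenyltransferase subunits gave no call for the probes that stand for them. Fnta, the alpha subunit shared by farnesyl transferase and geranylgeranyl transferase I, gave -0.03 ± 0.11 (95% interval -0.29 to 0.23). The dimmer Fnta probe stood at -2.57, -2.78 and -2.73 in Rb intact and at -3.16, -3.23 and -2.96 in Rb deleted. That probe fell by 0.43 ± 0.10 (SE, adjusted p over all probes = 0.0333), and with the mean of both probes Fnta fell by 0.23 (limma adjusted p = 0.0326). Fntb, the beta subunit of farnesyl transferase, gave 0.08 ± 0.12, and a second Fntb probe was not well above background on any array. Pggt1b, the beta subunit of geranylgeranyl transferase I, gave 0.27 ± 0.14 (95% interval -0.06 to 0.60), with Rb deleted 3 at -2.48 above the range of -3.17 to -2.87 of the other 5 arrays.

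Another 36 genes around the pathway were taken in 5 lists, for SREBP processing and LXR, sterol storage and export, other isoprenoid users, Rab geranylgeranylation with prenyl protein turnover, and prenylated proteins. Of these 36 genes 4 rose and 6 fell, beside 20.6% of all genes called, with a median of 0.01. The cholesterol exporters had the largest differences. Abca1, which passes cholesterol to apolipoprotein A-I, stood at -2.84, -2.42 and -2.62 in Rb intact and at -4.73, -4.43 and -4.38 in Rb deleted. The groups were far apart, and Abca1 fell by 1.89 ± 0.14 (SE, 3.70-fold, limma adjusted p = 0.000566). It passed in all 19 other settings, from -2.10 to -1.43, of which the shared-slide setting compares 1 Rb deleted array with 3 Rb intact arrays. Abcg1, which passes cholesterol to HDL, stood at -1.15, -1.33 and -1.46 in Rb intact and at -2.10, -2.06 and -2.12 in Rb deleted. With no overlap, Abcg1 fell by 0.78 ± 0.09 (SE, 1.72-fold, limma adjusted p = 0.00246), and its call was lost in 1 of 19 settings, that same shared slide alone, at an equal difference of -0.78 (adjusted p = 0.136). The 4 other genes of the storage and export list, Soat1, Scarb1, Npc2 and Lbr, did not pass. Their differences ran from -0.18 for Npc2 to 0.23 for Lbr, which encodes a sterol C14 reductase rather than a storage or export protein.

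Among the 7 genes of SREBP processing and LXR, 1 rose and 2 fell, beside 20.6% of all genes called, with a median of 0.01. Nr1h3, which encodes the sterol-sensing receptor LXR alpha, stood at -2.38, -2.35 and -2.24 in Rb intact and at -2.71, -2.72 and -2.68 in Rb deleted and fell by 0.38 ± 0.06 (SE, limma adjusted p = 0.00775). Its call held without each array in turn and held with slide as a random block. It was lost with the mean of its probes, at -0.32 (adjusted p = 0.167), and with slide as a fixed block or on the shared slide, at -0.38 in each. Mylip, the LXR-induced ligase that degrades lipoprotein receptors, fell by 0.28 ± 0.06 (limma adjusted p = 0.0202), and Mbtps2, the site-2 protease that frees SREBP, rose by 0.42 ± 0.09 (adjusted p = 0.0209). The Mylip call was lost without any 1 array other than Rb intact 1, and that of Mbtps2 without Rb intact 2 or any 1 Rb deleted array. With the normexp background model the Mbtps2 difference was 0.18 (adjusted p = 0.118), and its call was also lost with the mean of its probes, at 0.32. Both calls were lost with no filter on dim probes and with slide as a fixed block and held with slide as a random block. With replicate number as a block, the Mylip call was lost and that of Mbtps2 held. The other 4 did not pass, among them Srebf1 at 0.02 ± 0.09 (95% interval -0.19 to 0.22) and Nr1h2, which encodes LXR beta, at 0.01 ± 0.06.

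**Figure D3:**
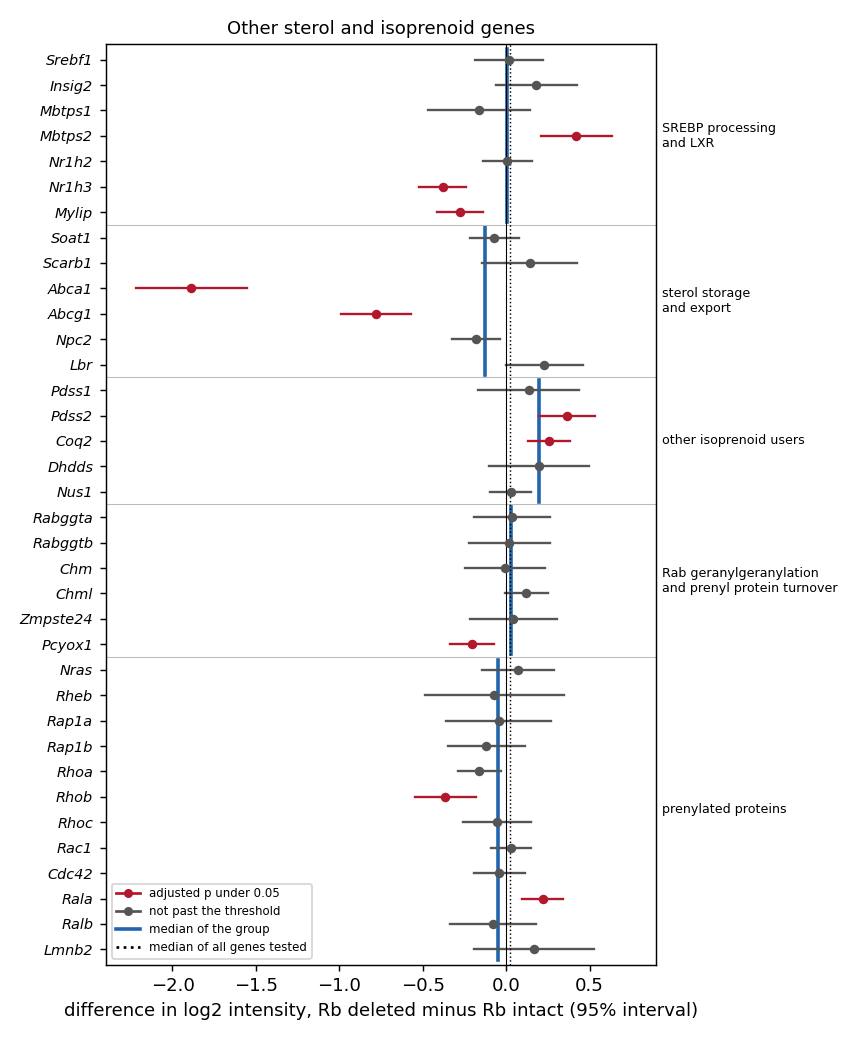
Difference in log2 intensity, Rb deleted minus Rb intact (x axis), with 95% intervals of the limma fit, for 36 further sterol and isoprenoid genes in 5 lists (y axis). Red marks the 10 genes past the threshold, blue lines are the list medians and the dotted line the median of all genes, and Abca1 at -1.89 and Abcg1 at -0.78 lie farthest from 0.

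Of the 23 genes for the users and turnover of isoprenoids, 3 rose and 2 fell, near the 20.6% of all genes called. Of 5 genes for ubiquinone and dolichol synthesis 2 rose, both of the ubiquinone branch. Pdss2, a subunit of the synthase for the ubiquinone tail, rose by 0.37 ± 0.07 (limma adjusted p = 0.0153) and Coq2, which attaches that tail, by 0.25 ± 0.05 (adjusted p = 0.02). Of 6 genes for Rab geranylgeranylation and prenyl protein turnover, Pcyox1, which breaks down prenylcysteine, fell by 0.20 ± 0.06 (limma adjusted p = 0.0474). Of 12 genes for prenylated proteins 1 rose and 1 fell, Rala by 0.22 ± 0.05 and Rhob at -0.37 ± 0.08 (limma adjusted p = 0.0292 and 0.0206). Nras, a farnesylated Ras protein gene, gave 0.07 ± 0.09 (95% interval -0.14 to 0.29, limma adjusted p = 0.601). The mean of its probes gave Rhob -0.18 (limma adjusted p = 0.123), so its probes did not give 1 answer, and the normexp background model gave Rala 0.15 (adjusted p = 0.16). All 5 calls held with slide as a random block, where the estimated correlation within slides was -0.20. All 5 were lost with slide as a fixed block, at 0.30 for Pdss2, 0.24 for Coq2, -0.18 for Pcyox1, -0.33 for Rhob and 0.24 for Rala. All 5 were also lost with no filter on dim probes and with replicate number as a block (7.12% and 11.9% of all genes called). The Coq2 call was lost with the mean of its probes, and those of Pcyox1 and Rala with array median scaling. Each of the 5 was lost also without Rb deleted 2 or Rb deleted 3. Those of Coq2, Pcyox1, Rala and Rhob were lost also without Rb deleted 1, those of Pdss2, Coq2, Pcyox1 and Rala without Rb intact 2, and those of Pdss2, Pcyox1 and Rala without Rb intact 3.

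Markers of the cells that such cultures can hold were read beside these values. Of 23 markers 17 were tested, none rose and 4 fell by limma, namely the basal genes Trp63, Itga6 and Dst and the smooth muscle actin gene Acta2. Of all genes tested, 20.6% were called, 10.2% rising and 10.4% falling. The summed level of the 4 tested basal markers, in multiples of each array's 75th percentile, was 32.4 to 38.8 in Rb intact and 23.8 to 24.4 in Rb deleted. Itga6 alone made up 89.7% to 92.3% of that sum on each array, so it is mainly the level of 1 gene. For the 5 tested fibroblast and smooth muscle markers the summed level was 228 to 249 and 210 to 233, with Col1a1, Col1a2, Vim and Pdgfra well above background on all 6 arrays. That sum is mainly Col1a2 and Vim, at mean levels of 6.49 and 6.45 in Rb intact, beside 3.19 for Acta2. It therefore shows little of the fall of Acta2, which was 1.34 ± 0.14 (SE, 2.53-fold, limma adjusted p = 0.00214). The 3 tested luminal markers summed to 12.0 to 13.4 and 10.3 to 12.0, the 3 endothelial ones to 4.15 to 4.31 and 3.63 to 4.38, and the 2 leukocyte ones to 2.29 to 6.42 and 3.79 to 4.42. The smooth muscle gene Myh11 and the leukocyte gene Ptprc were not well above background on any array. The luminal gene Pbsn and the basal gene Krt5 were each so on no more than 1 Rb intact array, and Krt5 on no more than 2 Rb deleted arrays. The part of basal or mesenchymal cells in the pathway differences was not tested.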

How the data were processed

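The deposited scanner files hold intensity values that the authors made in Agilent's Feature Extraction software. Per the file headers its version was 11.0.1.1, whereas the submitters' processing notes name 10.7.3.1. The processed intensity is background-subtracted and not scaled between arrays, and other deposited columns include median spot and background signals and flags of 0 or 1. The authors also deposited log2 values, each column equal to the log2 processed intensity minus a constant, within 0.01 for 100% of 22164 probes, with column medians from -0.52 to -0.49; no label gives their scale and centring. Each array held 43020 non-control spots, of which 134 to 263 had outlier flags and were left out. The rest were averaged to 39429 probes, of which 27427 were named by RefSeq accession. The 75th percentile of each array was subtracted from log2 intensity. A probe was kept if well above background on all 3 arrays of a group, and a gene was represented by its kept probe with the highest mean. No spot was saturated. Differences come from limma 3.58.1 in R 4.3.3, tested on simulated data. The number of arrays limits the precision. The alternative background model (normexp) used median signal, the spot signal the files hold. Scaling, filter, probe choice, variance model, slide, replicate number and left-out arrays were varied. The 28 genes, the 5 arms, the lists and the rule for named genes (all 28, Rb1, the called genes of other lists, and markers) were chosen with earlier results of these data known.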

Additional observations from a re-analysis of the deposited data

How the results depend on the processing

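The counts of pathway genes that rose and fell, 1 and 2 over all 6 arrays, moved with the settings. Array median scaling gave 1 fall (17.2% of all genes called), and no filter on dim probes gave 1 (7.12% of 20832 genes called). Averaging a gene's probes gave 4 falls (22.2% of all genes called), and a trended robust variance gave 2 rises (21.6% of all genes called). With array weights 5 rose and 9 fell (45.2% of all genes called), and with slide as a random block 4 rose (29.8% of all genes called). With slide as a fixed block 0 rose and 0 fell (1 and 1 at an unadjusted p under 0.05, limma), and likewise on the shared slide alone; all genes called were then 666 and 153, against 2829 over all arrays, 1484 with no filter, 6212 with array weights, 1638 with the replicate block and 1229 to 5180 without each array. At limma adjusted p under 0.01 there were 0 rises and 1 fall, and under 0.1 there were 4 rises and 5 falls. Shares of all genes at these thresholds are not given here, so these counts cannot be called high or low. Leaving out each array gave 0 to 4 rises and 1 to 6 falls. With the replicate block 0 rose and 1 fell (11.9% of all genes called). No pairing by replicate number was seen. Deviations from the group means correlated at -0.03, -0.05 and 0.02 for numbers 1, 2 and 3, and not every sample correlated best with its own number. With 3 arrays per group, whose deviations sum to 0, and Rb intact 1 standing apart, a weak pairing could be missed. The sterol arm's median moved to -0.12 with the mean of probes, -0.049 with array weights, -0.14 with slide as a fixed block and -0.14 on the shared slide, and ranged from -0.13 to -0.064 without each array. The prenylation arm's median was 0.16 with array weights, 0.17 with slide as a fixed block and 0.17 on the shared slide, and 0.023 to 0.18 without each array. The SREBP arm's median was -0.089 with the background model on median signal and 0.044 with the mean of probes. Other arm medians moved by less than the spread between arrays, and no called gene changed sign. Why the counts and medians moved was not tested.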
